A study of Mus musculus with 9 samples.

Results

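Malat1, Neat1 and Miat are long noncoding RNAs of the nucleus, and each was taken by its symbol from both deposited tables of N2A cells, a mouse neuroblastoma line. They are 3 of the 24318 genes in each table. Cells were transfected with scramble siRNA or with siRNA against EXOSC3 (siEXOSC3) or DDX1 (siDDX1), and 3 biological replicates of each condition, grown on separate plates of the same line, gave 9 libraries in all. EXOSC3 is a cap subunit of the RNA exosome, the complex that degrades and trims RNA from its 3′ end, and DDX1 is a DEAD-box RNA helicase. The line is tumour-derived, the groups differed in the siRNA alone, with transfection common to all, and total RNA of whole cells was depleted of rRNA before nondirectional library preparation, so neither nuclear location nor the strand of a read was measured.

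Malat1 and Neat1 are neighbours in the genome and in the nucleus. Malat1 RNA collects in nuclear speckles, which store splicing factors, while Neat1 RNA is the scaffold around which paraspeckles form. Malat1 and the long form of Neat1 have no poly(A) tail: RNase P cuts the precursor ahead of a tRNA-like fold, and the new 3′ end is protected by a triple helix in which 2 U-rich tracts clasp an A-rich tract. Miat, also called Gomafu, is a spliced and polyadenylated RNA of neurons that stays in separate nuclear domains, and its UACUAAC repeats resemble the intron branch point bound by the splicing factor SF1.

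On NCBIM37, the sequence of mm9, GENCODE vM1 places Malat1 at chr19:5795690-5802671 and Neat1 at chr19:5824708-5845478, both on the minus strand with 22036 bases between them. The longest annotated transcript is 6982 bases for Malat1 and 20771 bases for Neat1, each in 1 exon, and the shortest of the 4 Neat1 transcripts is 152 bases. Miat lies at chr5:112642248-112657968, minus strand, with 1 transcript of 8760 bases in 7 exons. A noncoding gene on the plus strand, Gm20417, overlaps Malat1, and its reads could not be told apart from those of Malat1.

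The 3′ ends of Malat1 (chr19:5795982-5796067, minus strand, 292 bases inside the annotated end) and Neat1 (chr19:5824708-5824797, minus strand, ending at the annotated end) are shown because they are the structure the pair has in common. They are written 5′ to 3′ as DNA, with the first U-rich tract, the second U-rich tract and the A-rich tract in capitals.
Malat1: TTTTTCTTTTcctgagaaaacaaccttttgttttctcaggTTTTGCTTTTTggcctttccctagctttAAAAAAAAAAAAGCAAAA
Neat1: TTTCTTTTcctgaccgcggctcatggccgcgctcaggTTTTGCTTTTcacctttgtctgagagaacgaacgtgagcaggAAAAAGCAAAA

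The tracts are TTTCTTTT, TTTTGCTTTT and AAAAAGCAAAA in Neat1, and Malat1 holds each of these with more T or A around it. These letters were chosen from the 2 genes themselves, and 5 to 60 bases were allowed between tracts. Searched on the transcribed strand of all 30136 annotated genes long enough, the 3 tracts in this order within the last 400 bases were found in 2 genes (0.00664%), which are Malat1 and Neat1. Alone, the first tract was present in 6.16%, the second in 0.358% and the A-rich tract in 0.133% of genes. The bases that follow the cut, 60 of which are given here, carry the T-loop box of a tRNA in both genes (GTTCNANTCC, in capitals).
Malat1, after the A-rich tract: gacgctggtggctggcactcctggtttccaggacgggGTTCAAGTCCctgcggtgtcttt
Neat1, after the A-rich tract: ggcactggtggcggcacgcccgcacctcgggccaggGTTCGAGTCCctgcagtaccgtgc

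Miat held no match to the 3 tracts in this window. A stretch of its last exon, exon 7, at chr5:112645777-112645827 (minus strand) is shown for its TACTAAC repeats, in capitals.
Miat: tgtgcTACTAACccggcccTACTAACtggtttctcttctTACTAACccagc
The spliced Miat transcript held 6 matches to TACTAAC, all in exon 7 and within 689 bases. The longest Malat1 transcript held 0 matches and the longest Neat1 transcript 1. Of 27876 genes searched over their whole span, introns included, 11 (0.0395%) had 6 or more matches within 700 bases. These limits match the values of Miat itself, so Miat passes by construction and the share is a description.

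Levels are FPKM, fragments scaled for transcript length and library depth, which allows genes to be compared. In the 9 libraries Malat1 ranked between 66 and 145 of 24318 genes and held 0.0944% to 0.225% of the FPKM total. Neat1 ranked between 1198 and 3297. The label of an abundant RNA did not hold for Miat, which ranked between 13708 and 15062 with 0.0107 to 0.105 FPKM. In scramble cells the mean was 738 ± 98.1 FPKM (SD, n = 3) for Malat1, 37.7 ± 7.21 FPKM (SD, n = 3) for Neat1 and 0.0205 ± 0.0161 FPKM (SD, n = 3) for Miat, and the ranges of the 3 genes did not overlap.

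Tests used limma on log2(FPKM + 1) over the genes with a mean of at least 1 FPKM in the 6 libraries of a table, with an adjusted p (Benjamini-Hochberg) under 0.05 as the threshold. Malat1 and Neat1 passed this filter and Miat did not, which left 2 of the 3 RNAs tested. The 2 tables hold the same scramble libraries scaled apart, by median factors of 1.00782 to 1.01188, so each knockdown was compared within its own table. The siRNA targets matched their labels: Exosc3 was at 15.5% ± 1.90 (SD, n = 3) of scramble in siEXOSC3 and Ddx1 at 24.4% ± 2.99 (SD, n = 3) in siDDX1. The paper gives a target for read depth, but the depth reached is unknown. The depth relative to scramble replicate 1, read from the smallest steps of low genes, ranged from 0.827 to 1.20 over the libraries.

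To ask whether these RNAs accumulate when the exosome is depleted, siEXOSC3 was compared with scramble. Malat1 measured 1382, 876 and 1582 FPKM in siEXOSC3 replicates 1, 2 and 3, against 702, 848 and 662 FPKM in scramble. All 3 EXOSC3-depleted libraries lay above all 3 scramble libraries, although replicate 2 was only slightly above the highest of them. The mean rose from 738 ± 98.1 to 1280 ± 364 FPKM (SD, n = 3 each), which is 174% ± 49.4 of scramble. The log2 fold change was 0.76 (SE 0.204, 95% interval 0.29 to 1.22, limma adjusted p = 0.0238). Malat1 was thus 1 of 1877 genes of the 11242 tested that rose, or 16.7%. A larger log2 fold change than that of Malat1 was found for 3.10% of the tested genes. Complete separation upward was seen in 23.8% of the tested genes, and with 3 libraries against 3 the exact two-sided permutation p of 0.1 is the smallest possible.

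The call for Malat1 rested on which libraries were used. It was lost with no filter on low genes (limma adjusted p = 0.0671). It was also lost without siEXOSC3 replicate 1 (log2 fold change 0.68, limma adjusted p = 0.0831), without scramble replicate 1 (0.73, 0.0822) and without scramble replicate 3 (0.69, 0.0894), and the adjusted p fell to 7.25e-04 without siEXOSC3 replicate 2 (1.01). The log2 fold change stayed between 0.58 and 1.01 in all 6 such fits.

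**Figure D1:**
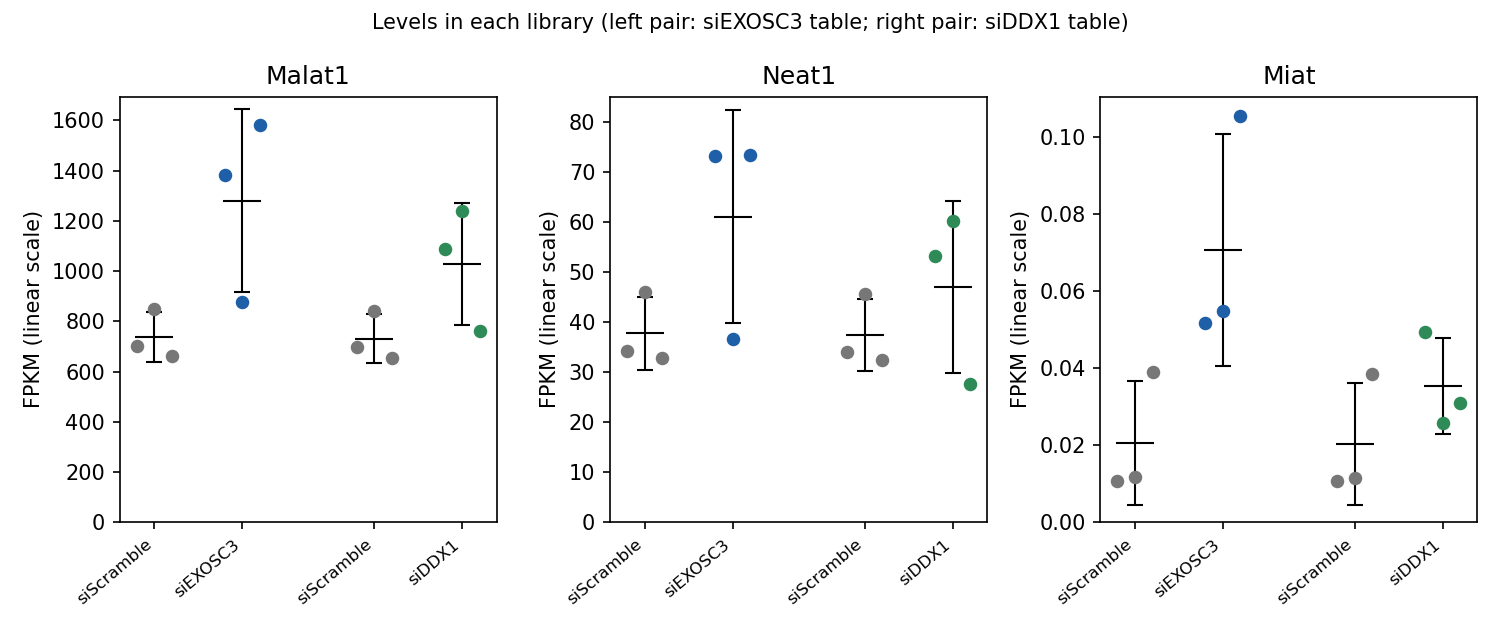
FPKM of Malat1, Neat1 and Miat (linear scale, each panel with its own range) in the scramble and knockdown libraries of the siEXOSC3 table (left pair) and the siDDX1 table (right pair); points are libraries in replicate order, the wide bar is the mean and the error bar the SD (n = 3). For Malat1 the 3 siEXOSC3 points, at 876 to 1582 FPKM, lie above the scramble points, while 1 siEXOSC3 and 1 siDDX1 point for Neat1 fall among or below the scramble points.

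Neat1 measured 73.2, 36.6 and 73.4 FPKM in siEXOSC3 replicates 1, 2 and 3, against 34.3, 46.0 and 32.9 FPKM in scramble. Replicates 1 and 3 lay above every scramble library, and replicate 2 lay within their range. The mean was 61.1 ± 21.2 FPKM in siEXOSC3 and 37.7 ± 7.21 FPKM in scramble (SD, n = 3 each), or 162% ± 56.3 of scramble. The log2 fold change of 0.63 (SE 0.254, 95% interval 0.048 to 1.21) did not pass the test, with a limma adjusted p of 0.0883 and an exact permutation p of 0.2. Without siEXOSC3 replicate 2 it was 0.96, with a limma adjusted p of 9.54e-04.

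Miat was at the lower end of what these libraries can measure. It was listed at 0.0519, 0.0548 and 0.105 FPKM in siEXOSC3 replicates 1, 2 and 3, and at 0.0107, 0.0117 and 0.0390 FPKM in scramble. The 3 siEXOSC3 values were above the 3 scramble values (exact two-sided permutation p = 0.1), and with no filter on low genes the limma adjusted p was 0.15. Multiplied by relative depth, the Miat values of the 9 libraries fell within 0.036 of multiples of 0.5 of the scramble replicate 1 value. If that step is 1 fragment, Miat rests on 2 to 17 fragments in a library, 2 to 8 in scramble and 8 to 17 in siEXOSC3. In the other libraries 18.5% to 22.6% of the low genes lay at the step from which relative depth was read, so these numbers are approximate. The difference in log2(FPKM + 1) was 0.069, a scale on which such low values hardly differ, and with a pseudocount of 0.1 it was 0.50.

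The same question was put to DDX1 depletion. Malat1 measured 1086, 1238 and 760 FPKM in siDDX1 replicates 1, 2 and 3, against 697, 842 and 654 FPKM in the scramble libraries of that table. Replicates 1 and 2 were above every scramble library and replicate 3 was among them. The mean was 1028 ± 244 FPKM against 731 ± 98.4 FPKM (SD, n = 3 each), or 141% ± 33.4 of scramble. The log2 fold change of 0.47 (SE 0.180, 95% interval 0.057 to 0.88) did not pass, with a limma adjusted p of 0.124 and an exact permutation p of 0.2, though 3.34% of the genes tested in siDDX1 exceeded it. It was 0.22 after quantile normalization and 0.31 after scaling to a total without Rmrp, the highest gene, and passed under neither.

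Neat1 measured 53.1, 60.2 and 27.6 FPKM in siDDX1 replicates 1, 2 and 3, against 34.0, 45.6 and 32.5 FPKM in scramble. Replicate 3 was below every scramble library, and the others were above every one. The log2 fold change was 0.26 (SE 0.264, 95% interval -0.34 to 0.87, limma adjusted p = 0.535, exact permutation p = 0.6), and 0.10 after scaling to a total without Rmrp. Miat was listed at 0.0493, 0.0257 and 0.0311 FPKM in siDDX1 and at 0.0107, 0.0116 and 0.0386 FPKM in scramble, so that the groups overlapped (exact permutation p = 0.3).

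Neither Malat1 nor Neat1 was therefore among the 5.61% of 11104 genes that rose in siDDX1 or the 5.03% that fell, and neither was among the 17% with all siDDX1 libraries above all scramble libraries. Without siDDX1 replicate 3 the log2 fold change was 0.67 for Malat1 (limma adjusted p = 0.00253) and 0.60 for Neat1 (limma adjusted p = 0.00682), while without siDDX1 replicate 2 that of Neat1 was 0.051. The knockdowns share their scramble libraries, and a difference between the siEXOSC3 and siDDX1 responses of these RNAs was not tested.

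**Figure D2:**
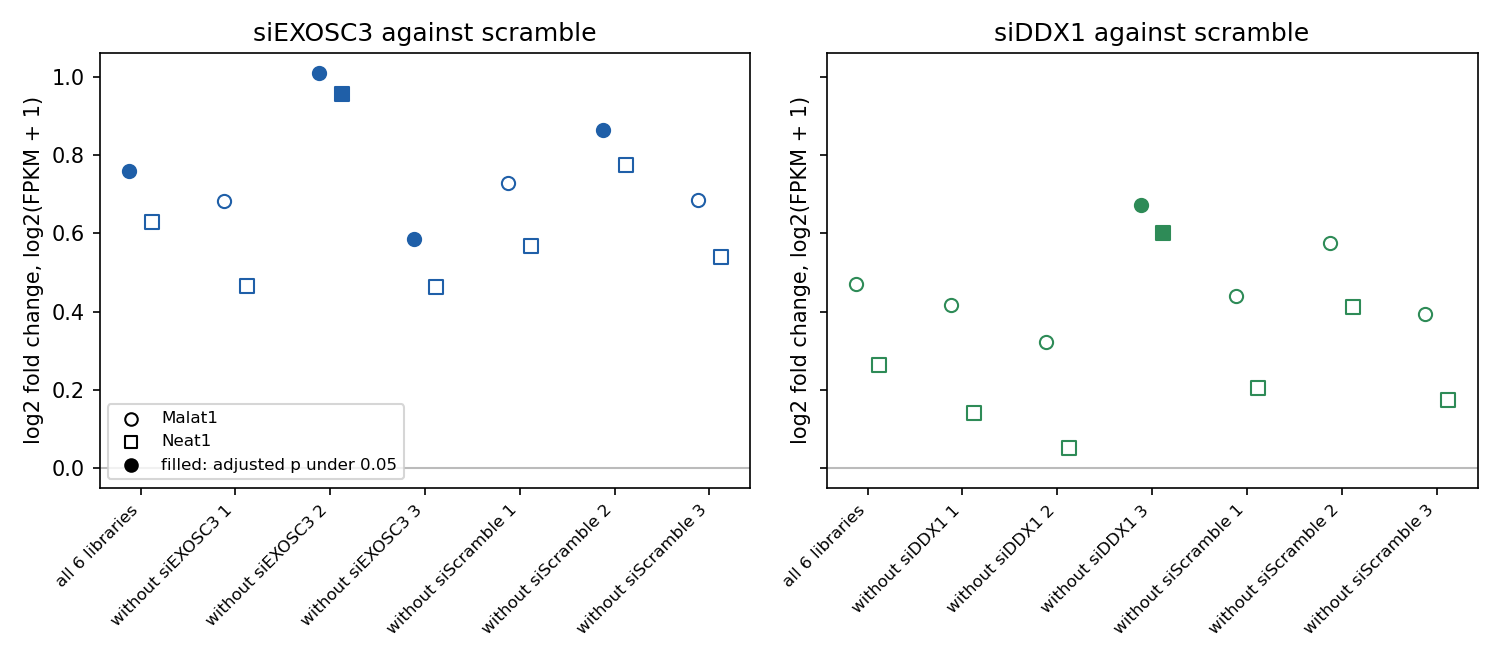
Log2 fold change of Malat1 (circles) and Neat1 (squares) on the log2(FPKM + 1) scale with all 6 libraries of a table and after leaving out each library in turn; filled symbols have a limma adjusted p under 0.05. Values are above 0 throughout, Neat1 is filled only without siEXOSC3 replicate 2 or siDDX1 replicate 3, and Malat1 in siDDX1 only without replicate 3.

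Malat1 and Neat1 moved together from library to library. Both were low in siEXOSC3 replicate 2, where Malat1 was at 119% and Neat1 at 96.9% of the scramble mean, and high in replicates 1 and 3, at 187% and 214% for Malat1 and 194% and 195% for Neat1. Both were low in siDDX1 replicate 3, at 104% and 73.8% of the scramble mean. In scramble, both were highest in replicate 2, at 115% and 122%.

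The ratio of Malat1 to Neat1 FPKM varied less than either level. It was 20.5, 18.4 and 20.1 in scramble replicates 1, 2 and 3, with a mean of 19.7 ± 1.10 (SD, n = 3). In siEXOSC3 the ratio was 18.9, 24.0 and 21.5 (mean 21.5 ± 2.54, SD, n = 3, exact permutation p = 0.4). In siDDX1 it was 20.4, 20.5 and 27.5 (mean 22.8 ± 4.07, SD, n = 3, exact permutation p = 0.2). In each knockdown the ratio was highest in the library where both RNAs were low, siEXOSC3 replicate 2 and siDDX1 replicate 3, and neither comparison reached the smallest p this design allows. The transcript length used for Neat1 is not given in the sources used here, and the ratio depends on it.

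**Figure D3:**
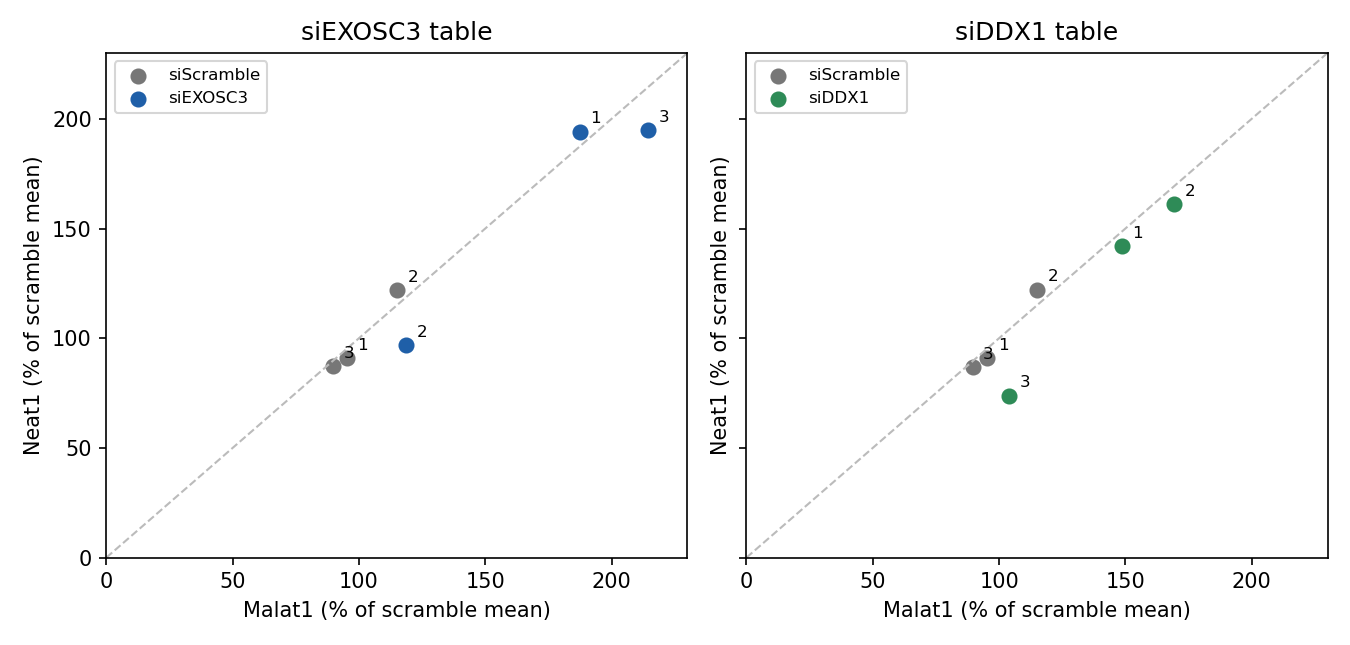
Neat1 against Malat1, each as a percent of its scramble mean, in the 6 libraries of each table; numbers are replicates and the dashed line marks equal percentages. siEXOSC3 replicates 1 and 3 sit near 200% on both axes, and siEXOSC3 replicate 2 and siDDX1 replicate 3 sit beside the scramble libraries, below the line.

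The spread within groups was large for both RNAs. The pooled SD of log2(FPKM + 1) in the siEXOSC3 table was 0.34 for Malat1 and 0.44 for Neat1, against a median of 0.11 over all tested genes. Of the 6824 genes with at least 10 FPKM, 1.04% had a larger SD than Malat1 and 0.440% a larger SD than Neat1. In the siDDX1 table the SD was 0.29 and 0.46, and 2.53% and 0.443% of 6771 such genes had a larger one.

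Several library measures moved with the low values. Over all tested genes, the median absolute log2 deviation from scramble was smallest in siEXOSC3 replicate 2 (0.16, against 0.20 and 0.27 in replicates 1 and 3) and in siDDX1 replicate 3 (0.13, against 0.18 and 0.16 in replicates 1 and 2). The targets were least depleted in the same libraries, with Exosc3 at 17.4% of scramble against 15.5% and 13.6%, and Ddx1 at 27.8% against 22.4% and 22.9%. Rmrp, the RNA of RNase MRP and the highest gene of every library, took 11.9% of the FPKM total in siDDX1 replicate 3 against 17.3% and 15.4%, but 14.4% in siEXOSC3 replicate 2 against 15.5% and 10.1%. The part of these measures in the Malat1 and Neat1 values was not tested.

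Cell identity was read from marker lists. Of 12 tested neuronal and neuroblast markers 9 rose and 0 fell in siEXOSC3 (10 and 1 at an unadjusted p under 0.05), where 16.7% of all tested genes rose and 15.7% fell, and their summed level was 962 to 999.6 FPKM in scramble and 1388 to 1442 FPKM in siEXOSC3. In siDDX1, Gap43 and Elavl4 rose and 0 fell (3 and 2 unadjusted), beside 5.61% and 5.03% of all tested genes, with sums of 955 to 988 and 1017 to 1106 FPKM. Of 10 markers of other cell types only the endothelial gene Pecam1 passed the filter, and it rose in siEXOSC3 (log2 fold change 0.67, limma adjusted p = 0.00827). The sum of the 10 was 4.69 to 6.18 FPKM in scramble, 6.90 to 10.4 in siEXOSC3 and 5.98 to 6.64 in siDDX1, and the astrocyte gene Aqp4 and the hepatocyte gene Alb were at 0 in every library. In bulk RNA, more cells of a type and more RNA per cell cannot be told apart, and the part of these markers in the result was not tested.

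Genes with the library pattern most like that of Malat1 were sought among 6654 genes with at least 10 FPKM in both tables, by the smaller of the Pearson correlations over the 6 libraries of each table. The closest were Pgm2, a sugar phosphate mutase (r = 0.994 and 0.997 in the siEXOSC3 and siDDX1 tables), Kxd1 (0.996 and 0.993) and Eno2, the neuronal enolase (0.992 and 0.998). Eno2 measured 94.0, 56.1 and 137 FPKM in siEXOSC3 replicates 1, 2 and 3 and 77.3, 92.0 and 41.1 FPKM in the siDDX1 replicates. Its low libraries are those of Malat1 because it was picked for that likeness. It rose in siEXOSC3 (log2 fold change 1.17, limma adjusted p = 0.0165) and in siDDX1 its log2 fold change was 0.75 (limma adjusted p = 0.108). The direction of these changes is tied to the same choice and is not separate evidence. For Neat1 the closest were Urod, an enzyme of haem synthesis (0.966 and 0.967), P4hb, a protein disulphide isomerase (0.965 and 0.985), and Pik3ip1 (0.949 and 0.984).

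Malat1 and Neat1 correlated at r = 0.967 and 0.899, which placed Malat1 at rank 51 in the list of Neat1 and Neat1 at rank 183 in that of Malat1. For Miat the highest values were those of Naglu (0.928 and 0.915), Sbf1 (0.911 and 0.952) and Letmd1 (0.911 and 0.973), on few fragments. The points of each correlation are the same libraries, 3 of them common to both tables, and they share depth and scaling, so these values are descriptions.

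Other long noncoding RNAs were examined beside the 3. Of 35 listed, 34 had a row, 8 were at 0 in every library and 18 passed the filter. In siEXOSC3 6 of the 18 rose and 1 fell, beside 16.7% and 15.7% of all tested genes, with a median log2 fold change of 0.22 against -0.0145 over all. Without siEXOSC3 replicate 1 or scramble replicate 1 or 3, 4 rose and 0 fell, and without scramble replicate 2, 5 rose and 0 fell. Over all tested genes 1027 to 1324 rose and 583 to 932 fell in those fits, against 1877 and 1767 in the main fit. Lincpint, a p53-induced RNA, measured 47.2, 27.5 and 69.6 FPKM in siEXOSC3 and 18.6, 23.5 and 20.4 FPKM in scramble (log2 fold change 1.08, limma adjusted p = 0.0197), with replicate 2 the lowest again. Peg13, an imprinted RNA, rose evenly to 7.80, 8.03 and 9.17 FPKM from 4.73, 5.03 and 5.00 (0.65, adjusted p = 0.00201). The others that rose were Dleu2, Rian, Pvt1 and Nespas, the last of which is antisense to Gnas and cannot be told apart from it without strand, and the host RNA of the miR-17 cluster, Mir17hg, fell by 0.52 on the log2 scale.

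In siDDX1 1 of the 18 rose and 2 fell, beside 5.61% and 5.03% of all tested genes, with a median of 0.013 against -6e-04 over all genes. Tug1 measured 27.7, 31.2 and 29.1 FPKM in siDDX1 and 45.3, 51.2 and 43.5 FPKM in scramble (log2 fold change -0.65, limma adjusted p = 0.00576), with no overlap between groups. Without siDDX1 replicate 3 the counts were 3 and 4, and without any other single library 0 rose and 1 or 2 fell. After scaling to a total without Rmrp 0 rose and 2 fell, so that the rise of Pvt1 was lost. These fits also moved the counts over all tested genes, which were 623 rises and 559 falls. They were 1818 and 1706 without siDDX1 replicate 3, and 255 and 1600 after the scaling. Without any other single library they were 95 to 286 and 58 to 234. Dancr also fell (-0.46, adjusted p = 0.0129) and Pvt1 rose (0.40, adjusted p = 0.0211). Lincpint was not called (0.49, adjusted p = 0.213) and measured 34.3, 39.9 and 18.4 FPKM, with the lowest value in replicate 3.

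The proteins of the structures these RNAs belong to had more members called lower than higher in siEXOSC3. Of 25 nuclear speckle proteins 0 rose and 10 fell (1 and 11 at an unadjusted p under 0.05), with a median log2 fold change of -0.18, where 16.7% of all tested genes rose and 15.7% fell. The largest falls were those of Srsf3 (-0.60, limma adjusted p = 0.0361) and Srsf6 (-0.51, adjusted p = 0.0201), both SR splicing factors, and Acin1 (-0.47, adjusted p = 0.0124). Without scramble replicate 1 or 3 the count of 10 was 2, without siEXOSC3 replicate 1 or scramble replicate 2 it was 4, and 13 were called when siEXOSC3 replicate 2 was left out. With no filter on low genes it was 6. Falls over all tested genes were 1767 in the main fit and 583 to 932 in the fits with 2 or 4. They were 2508 without siEXOSC3 replicate 2 and 1299 with no filter. For siDDX1, U2af2 rose (0.21, adjusted p = 0.0454) and Srsf3 fell (-0.35, adjusted p = 0.0268), the other 23 were not called beside 5.61% rises and 5.03% falls over all tested genes, and the median was -0.0186. The counts of 1 and 1 were 4 higher and 9 lower without siDDX1 replicate 3, 0 and 0 without any other single library, and 0 and 6 after scaling to a total without Rmrp. Over all tested genes 1818 rose and 1706 fell without siDDX1 replicate 3, against 623 and 559 in the main fit. Without any other single library 95 to 286 rose and 58 to 234 fell, and after the scaling 255 and 1600.

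Of 33 paraspeckle proteins 3 rose and 12 fell in siEXOSC3, beside 16.7% and 15.7% of all tested genes, with a median log2 fold change of -0.16. Sfpq, a core paraspeckle protein that binds Neat1, measured 90.9, 123 and 71.7 FPKM in siEXOSC3 and 154, 152 and 160.0 FPKM in scramble (-0.73, limma adjusted p = 0.0128), with replicate 2 nearest to scramble. Rbmx fell in siEXOSC3 (-0.49, adjusted p = 0.0287) and in siDDX1 (-0.52, adjusted p = 0.0437). Zc3h6 rose in both, from 3.54 ± 0.449 to 9.13 ± 2.27 FPKM (SD, n = 3 each) in siEXOSC3 (1.14, adjusted p = 0.00272). In siDDX1 it went from 3.50 ± 0.445 to 5.10 ± 0.510 FPKM (SD, n = 3 each, 0.44, adjusted p = 0.0376). The others that rose were the cold-inducible Cirbp in siEXOSC3 (0.29) and Ahdc1 in siEXOSC3 (0.44) and siDDX1 (0.45). The count of 12 was 3 without scramble replicate 1 or 2, 4 without siEXOSC3 replicate 1 or scramble replicate 3, and 15 were called when siEXOSC3 replicate 2 was left out. With no filter on low genes it was 5. Falls over all tested genes were 1767 in the main fit and 583 to 932 in the fits with 3 or 4. They were 2508 without siEXOSC3 replicate 2 and 1299 with no filter. The 3 that rose were 1 without siEXOSC3 replicate 1 or scramble replicate 1 or 2, where 1027 to 1324 of all tested genes rose, against 1877. Of the 33, 2 rose and 1 fell in siDDX1, beside 5.61% and 5.03% of all tested genes, with a median of -0.0063. These counts were 5 and 6 without siDDX1 replicate 3, 0 and 0 without any other single library, and 0 and 5 after scaling to a total without Rmrp. Over all tested genes 1818 rose and 1706 fell without siDDX1 replicate 3, against 623 and 559 in the main fit. Without any other single library 95 to 286 rose and 58 to 234 fell, and after the scaling 255 and 1600.

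All 4 listed proteins that bind Miat or its repeats were tested, and in siEXOSC3 1 rose and 2 fell, where 16.7% and 15.7% of all tested genes did. The count of 2 was 3 without siEXOSC3 replicate 2 and 1 without any other single library. Falls over all tested genes were 2508 and 583 to 1526 in those fits, against 1767 in the main fit. Celf3, a neuronal RNA-binding protein, measured 26.9, 27.7 and 26.8 FPKM in siEXOSC3 and 14.9, 14.3 and 17.3 FPKM in scramble (0.77, limma adjusted p = 9.32e-04), without a low replicate 2. Qk, the quaking splicing regulator, fell from 50.3 ± 2.67 to 32.0 ± 4.18 FPKM (SD, n = 3 each, -0.64, adjusted p = 0.00322), and Srsf1 fell by 0.39 on the log2 scale (adjusted p = 0.0335). Sf1, the branch point protein, was not called (-0.19, adjusted p = 0.115). The median was -0.29. In siDDX1 0 of the 4 were called by limma (2 had an unadjusted p under 0.05, both lower), beside 5.61% rises and 5.03% falls over all tested genes, with a median of -0.18. Without siDDX1 replicate 3, 2 fell, and after scaling to a total without Rmrp 1 fell. Over all tested genes 1706 and 1600 fell in these fits, against 559 in the main fit.

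The list drawn as 3′ end makers comprised the RNA and proteins of RNase P, which makes the cut described above. It also held the tRNA 3′ enzymes Elac2 and Trnt1, and Mettl16, which binds the Malat1 triple helix. In siEXOSC3 1 of the 15 rose and 5 fell (2 fell without siEXOSC3 replicate 1 or scramble replicate 1 or 3, 3 fell without scramble replicate 2, and 2 rose without siEXOSC3 replicate 3), beside 16.7% and 15.7% of all tested genes, and the median log2 fold change was -0.14. Falls over all tested genes were 583 to 932 in the fits with 2 or 3 falls, against 1767. Rises were 1705 without siEXOSC3 replicate 3, against 1877. Rpph1, the RNA of RNase P, was at 2968 ± 283 FPKM against 2959 ± 336 FPKM in scramble (SD, n = 3 each). Of the protein subunits Rpp21 rose (0.59, limma adjusted p = 0.00716) and Rpp30 fell (-0.54, adjusted p = 0.00873). Mettl16 fell from 36.6 ± 1.71 to 25.3 ± 2.85 FPKM (SD, n = 3 each, -0.52, adjusted p = 0.00511), and Pop4, Elac2 and Trnt1 also fell. In siDDX1 Rpp21 rose (0.53, adjusted p = 0.0348) and Rpp25 fell (-0.65, adjusted p = 0.0304), and 13 were not called, where 5.61% of all tested genes rose and 5.03% fell, with a median of 0.046. The counts were 1 higher and 3 lower without siDDX1 replicate 3, 0 and 0 without any other single library, and 0 and 2 after scaling to a total without Rmrp. Over all tested genes 1818 rose and 1706 fell without siDDX1 replicate 3, against 623 and 559 in the main fit. Without any other single library 95 to 286 rose and 58 to 234 fell, and after the scaling 255 and 1600.

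Of 13 genes for nuclear exosome nucleases and adaptors 0 rose and 1 fell in siEXOSC3 (0 and 4 at an unadjusted p under 0.05), beside 16.7% and 15.7% of all tested genes, with a median log2 fold change of -0.15. That gene was Skiv2l2, which encodes the helicase MTR4 (-0.21, limma adjusted p = 0.0314). The count of 1 was 4 without siEXOSC3 replicate 2 and 0 without siEXOSC3 replicate 1 or any scramble library, and 1 gene rose without siEXOSC3 replicate 3. Falls over all tested genes were 2508 in the fit with 4 and 583 to 932 in those with 0, against 1767. Rises were 1705 without siEXOSC3 replicate 3, against 1877. In siDDX1 0 rose and 1 fell, beside 5.61% and 5.03% of all tested genes. It was Zfc3h1, which links MTR4 to polyadenylated RNA. It measured 11.5, 14.04 and 20.4 FPKM in siDDX1 and 25.1, 25.3 and 27.0 FPKM in scramble (-0.75, adjusted p = 0.0295), with replicate 3 nearest to scramble. The median of the 13 was -0.0155. Without siDDX1 replicate 3, 2 rose and 1 fell, and without any other single library 0 and 0 were called. Over all tested genes 1818 rose and 1706 fell without siDDX1 replicate 3, against 623 and 559 in the main fit. Without any other single library 95 to 286 rose and 58 to 234 fell.

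**Figure D4:**
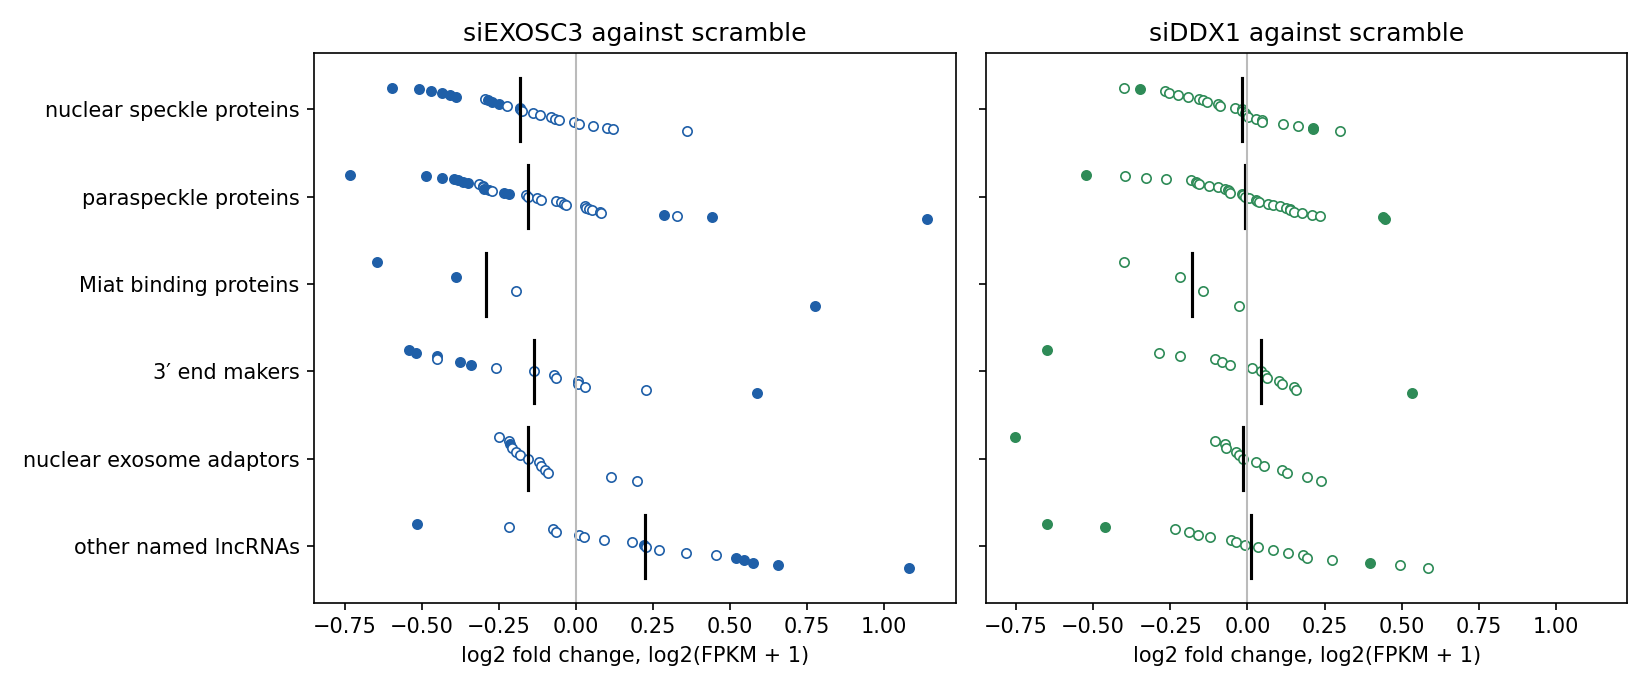
Log2 fold change on the log2(FPKM + 1) scale of each tested gene in 6 lists, by knockdown; filled points have a limma adjusted p under 0.05 and the black bar is the median of the list. In siEXOSC3 the median of the speckle proteins is -0.18 and that of the other lncRNAs 0.22, and in siDDX1 the medians of these 2 lists are -0.0186 and 0.013.

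Apart from Neat1, no tested gene around Malat1 had a log2 fold change near that of Malat1. Such values were rare in any case: 3.10% of all tested genes in siEXOSC3 and 3.34% in siDDX1 exceeded it. Within 100 kb of Malat1 12 annotated genes had a row and 10 were tested, Neat1 among them, and 0 were called by limma in either knockdown. Over all tested genes 16.7% rose and 15.7% fell in siEXOSC3, and 5.61% and 5.03% in siDDX1. At an unadjusted p under 0.05 there were 1 higher and 2 lower in siEXOSC3, and 0 higher and 1 lower in siDDX1. Ltbp3 had a log2 fold change of -0.15 in siEXOSC3, and Frmd8, which lies 4224 bases from Neat1, of -0.31 (limma adjusted p = 0.0502). Map3k11 was at -0.32 (adjusted p = 0.0504) and Fam89b at -0.19, and Sssca1, Ehbp1l1, Slc25a45 and Dpf2 lay between 0.01 and 0.08. Around Neat1 the same genes but for Map3k11, with Malat1 and Pola2, made up the 10 tested, of which Malat1 rose and Pola2, a DNA polymerase subunit, fell (-0.33, adjusted p = 0.0324). In siDDX1 the neighbours of Malat1 other than Neat1 lay between -0.30 (Fam89b) and 0.19 (Sssca1), Pola2 was at -0.25 (adjusted p = 0.0677), and none of these passed limma's test. Of the 2 tested genes within 100 kb of Miat, Tfip11, a splicing factor, fell in siEXOSC3 (-0.29, adjusted p = 0.0165) and Tpst2 was at -0.11.

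**Figure D5:**
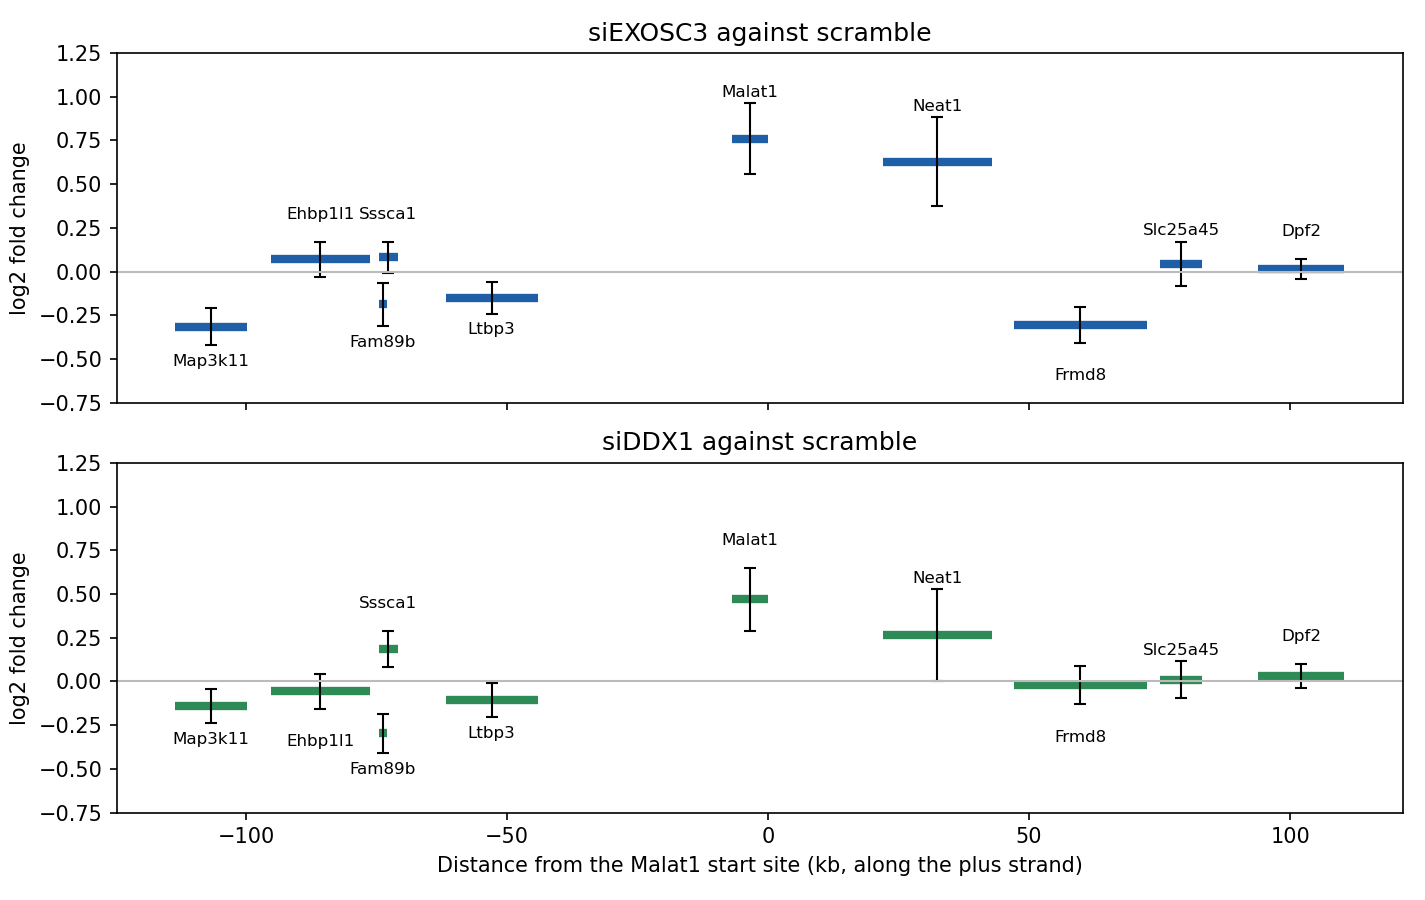
Log2 fold change of Malat1 and 9 of the 10 tested genes within 100 kb of it, drawn along the chromosome as distance from the Malat1 start site in kb; horizontal bars span the gene and error bars are the SE from limma. Malat1 (0.76) and Neat1 (0.63) stand above their neighbours in siEXOSC3, where the others drawn lie between -0.32 and 0.08.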

How the data were processed

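RNA-seq libraries from 3 scramble, 3 siEXOSC3 and 3 siDDX1 transfections of N2A cells were analysed. The authors aligned reads to mm9 with TopHat2 version 2.1.0, used SAMtools, and ran Cuffdiff version 2.2.1 with scramble as the control of each knockdown. The values they deposited are FPKM per gene and library in 2 tables; the annotation and the library normalization are not given in the sources used here. Because FPKM do not hold read numbers, tests for counts were not used. Exonic length, and so FPKM of Neat1 and Malat1, depends on the transcripts in that annotation.

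From the deposited FPKM, log2(FPKM + 1) was modelled within each table by limma (version 3.58.1, under R 4.3.3; lmFit, then eBayes with intensity trend, without covariates), keeping genes whose mean FPKM reached 1. The two-sided P-values were corrected with the Benjamini-Hochberg method (threshold 0.05). Fold changes on this scale understate changes of low genes. Single genes and ratios also had an exact permutation test, which cannot go below p = 0.1 here. On simulated data, where 200 genes were changed by 1 on the log2 scale, the fit called 191 of them (95.5%) and 8 unchanged genes among 11242 genes for siEXOSC3, and 185 (92.5%) and 11 unchanged genes among 11104 for siDDX1. The depth reached is unknown, so no counting interval is given. Positions and sequences came from GENCODE vM1 on NCBIM37, and figures from matplotlib version 3.10.9.

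The 3 RNAs, the gene lists and the rule for named genes were chosen with earlier results of these data known. The rule took the 3 RNAs, the siRNA targets, the 3 largest changes among called genes of each list (markers apart), every tested gene within 100 kb (1 of which is not reported here), and the 3 genes most like each RNA. Mettl16, Rpph1, Sf1, Dancr and the other called genes outside the rule were named after their values were seen. Alternatives were other scalings (quantile, median centring, and a total over all genes but Rmrp), a pseudocount of 0.1, no filter or a mean of at least 5 FPKM, eBayes without its trend, a block for replicate number, an adjusted p under 0.01, and leaving out each library.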

Additional observations from a re-analysis of the deposited data

How the results depend on the processing

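Under all alternatives Malat1 and Neat1 kept a log2 fold change above 0 in both knockdowns. In siEXOSC3, Malat1 (0.76) lost its call with no filter (0.76, limma adjusted p = 0.0671) and with the replicate number as a block (0.76, adjusted p = 0.0562), and its value ranged from 0.58 to 1.01 when each library was left out (adjusted p from 7.25e-04 to 0.0894 over all alternatives); Neat1 ranged from 0.46 to 0.96. In siDDX1, Malat1 ranged from 0.32 to 0.67 and Neat1 from 0.051 to 0.60 in the same way, and Malat1 passed with the replicate block (0.47, adjusted p = 0.0196). Same-numbered libraries did not deviate together in every pair (r = 0.035, -0.31 and -0.13 in siEXOSC3, and -0.012, 0.38 and 0.37 in siDDX1), so the numbers were not taken as pairs. Malat1 in siDDX1 was lowest with quantile normalization, at 0.22. Miat, left out of the test by the filter, ranged from 0.046 to 0.082 and from 0.012 to 0.034 without single libraries and moved to 0.50 in siEXOSC3 and 0.17 in siDDX1 with a pseudocount of 0.1, by construction of the scale. Ratios with Miat were not run, since its values rest on few fragments.

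Counts of called genes moved more. In siEXOSC3, 1877 rose and 1767 fell; leaving out libraries gave 1027 to 2379 and 583 to 2508, an adjusted p under 0.01 gave 869 and 480, and 1059 fell with the replicate block. In siDDX1, 623 rose and 559 fell; leaving out libraries gave 95 to 1818 and 58 to 1706, an adjusted p under 0.01 gave 100 and 83, no filter gave 387 and 330, and 1085 rose with the replicate block. Scaling to a total without Rmrp gave 255 and 1600 there, lowered the share of rises among called genes from 52.7% to 13.7% and shifted the median of all genes by -0.15 (log2); Malat1 was at 0.31 and Neat1 at 0.10 under it. Of 360 alternative counts for the gene lists, 221 stayed within 1.5 times, 114 were lower and 25 higher. With the replicate block 5 speckle and 7 paraspeckle proteins fell in siEXOSC3, against 10 and 12 in the main fit. The absolute depth reached is unknown, which limits what can be said of Miat.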
